A study of Mus musculus with 42 samples.

Results

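The immediate early genes described here are *Junb*, *Jun*, *Fos*, *Fosb*, *Egr1*, *Nr4a1*, *Atf3* and *Ier2*, together with the feedback genes *Dusp1* and *Zfp36*, 10 of the 26653 genes listed in each tissue. They were taken by gene symbol, and all 10 symbols were found in the deposited table. The genes were selected on earlier results of these same data, in which *Junb* differed between genotypes in several tissues, and the others are members of its family and response. All values below therefore describe the data and are no independent evidence of a direction. RNA had been sequenced from heart, liver, spleen, eyes, prostate, testes and cultured embryonic fibroblasts (MEFs, passage 2) of male mice of the Tug1_tm1.1Vlcg strain on a C57BL/6J background (N3, without the Neo cassette), in 42 samples. The 22 wild-type samples carried 2 normal *Tug1* alleles, and the 20 knockout samples carried a *lacZ* reporter in place of the *Tug1* long noncoding RNA gene on both alleles, a deletion that leaves the *Tug1* promoter in place. There were 3 wild-type and 3 knockout samples of heart, liver, spleen, eyes and MEFs, 3 and 2 of prostate, and 4 and 3 of testes. The labels give no age and no treatment for these samples, and they do not tie tissues to single mice.

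Immediate early genes are switched on within minutes of a stimulus, without new protein synthesis, by transcription factors that already sit in the cell, such as the serum response factor with its Elk partners and CREB. Their messages and proteins are short-lived. Jun and Fos proteins pair into AP-1, a leucine zipper transcription factor, while *Egr1* and *Nr4a1* encode a zinc finger factor and an orphan nuclear receptor. *Dusp1* and *Zfp36* close the response, the first by removing phosphate from MAP kinases and the second by marking messages for decay. Tissues had been snap frozen after euthanasia, and MEFs had been grown in dishes.

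Such responses act through sites in the promoters of the genes, so short stretches of them are shown before the values. In RefSeq sequences on GRCm38.p6, 8 of the 10 genes have a promoter entry (all but *Egr1* and *Ier2*), a window of 300 bases from 250 before to 50 after the start site. The CRE half-site TGACG, the core of the CREB site, lies on either strand in 6 of these 8 promoters and in 20.8% of all 32851 promoters of the same length. In the stretches below, read 5′ to 3′ on the strand of the gene, capitals mark the CRE half-site (in *Dusp1* the full palindromic CRE, in *Zfp36* the CArG box bound by the serum response factor). On the reverse strand the half-site reads CGTCA.
Junb: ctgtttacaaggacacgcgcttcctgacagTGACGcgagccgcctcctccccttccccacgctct
Fos: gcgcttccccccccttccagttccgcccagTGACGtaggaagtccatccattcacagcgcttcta
Fosb: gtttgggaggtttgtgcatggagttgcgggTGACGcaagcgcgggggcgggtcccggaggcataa
Nr4a1: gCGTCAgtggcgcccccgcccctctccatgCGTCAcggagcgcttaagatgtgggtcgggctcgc
Atf3: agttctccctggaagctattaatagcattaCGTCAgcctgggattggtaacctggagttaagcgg
Dusp1: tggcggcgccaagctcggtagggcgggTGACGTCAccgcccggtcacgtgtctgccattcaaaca
Zfp36: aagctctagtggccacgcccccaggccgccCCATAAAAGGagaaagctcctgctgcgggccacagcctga

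In order, these stretches lie at chr8:84978820-84978884 (minus strand), chr12:85473794-85473858 (plus), chr7:19310071-19310135 (minus), chr15:101266776-101266840 (plus), chr1:191183306-191183370 (minus), chr17:26508578-26508642 (minus) and chr7:28379247-28379316 (minus), and all but that of *Atf3* end before the start site. The full CRE, TGACGTCA, was found in 1 of the 8 promoters, that of *Dusp1*, and in 1.79% of all promoters. The EGR site GCGGGGGCG was found in the promoters of *Fosb*, *Nr4a1* and *Zfp36*, 3 of 8 beside 2.91% of all, and the sites of *Fosb* and *Nr4a1* lie within the stretches shown. The CArG box was found in 1 of 8 (*Zfp36*) and in 1.63% of all promoters, and TATAAA in 2 of 8 (*Junb* and *Fos*) and in 13.6%. The TATAAA of *Fos* lies at -33 to -28 from the start site, but that of *Junb* at 0 to 5. The start site of *Junb* differs between annotations, at 84978748 here and at 84978718 in GENCODE vM21. The upstream ends of other genes differ more between the deposited loci and GENCODE vM21. They are 26508519 and 26562128 for *Dusp1*, 191183340 and 191218039 for *Atf3*, 101266846 and 101254269 for *Nr4a1* and 28379255 and 28380253 for *Zfp36*. That of *Fosb* differs by less, at 19310045 and 19310051, and that of *Fos* is the same. GGGCGG, the GC box, was found in 7 of 8 and in 35.7% of all, and 1 of the 3 GC boxes in each of *Fosb* and *Nr4a1* overlaps the EGR site. The AP-1 site TGACTCA was in 0 of 8 promoters and in 5.2% of all, and the glucocorticoid receptor half-site TGTTCT in 0 of 8 and in 19% of all. The full CRE holds the half-site on both strands. All motifs were searched on both strands, and a match describes letters in a window and not a bound site. Bases outside the windows were not searched, and *Egr1* and *Ier2* had no window. A motif without a match, such as the CArG box in *Fos*, may therefore still lie farther from the start site.

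**Figure D1:**
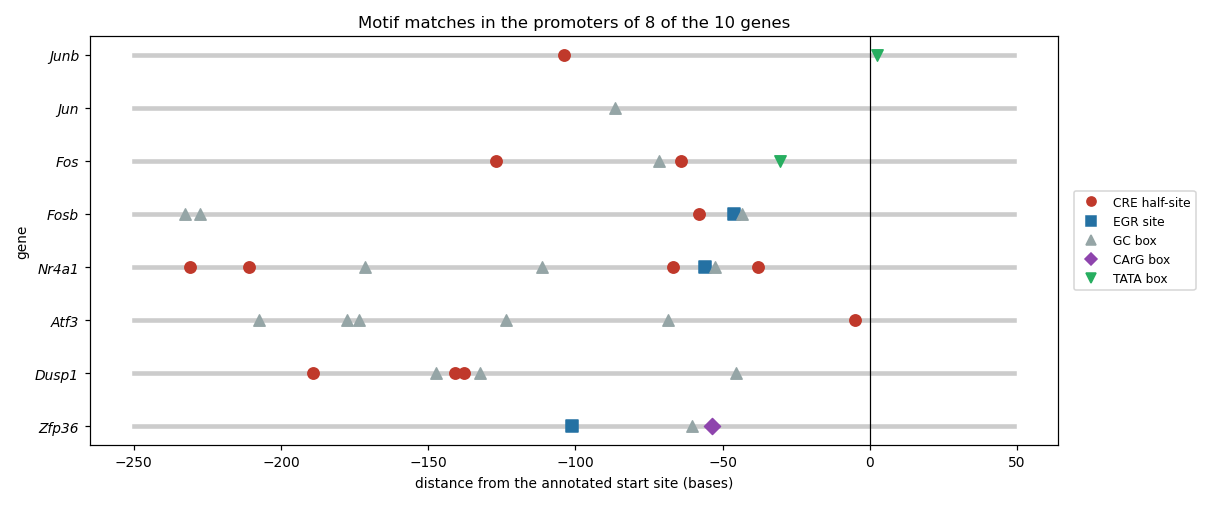
Matches of 5 motifs (coloured marks) along the promoter windows of the 8 genes with a RefSeq entry, by distance in bases from the annotated start site, which is the vertical line at 0. CRE half-sites are seen in 6 of the 8 windows, and *Nr4a1* and *Dusp1* hold several.

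The deposited table gives 1 value per genotype and tissue in FPKM, a level scaled by transcript length and library size in which the authors had combined the replicates. It holds no value per mouse, so there is no spread between replicates, no test was made of any difference below, and the depth of the libraries is unknown. A difference is given as the log2 of knockout over wild-type, with 0.1 FPKM added to both, which understates the change of low genes. A gene was counted in a tissue with at least 1 FPKM in either genotype, and a difference of more than 1.5 times (0.585 on the log2 scale) was used as a limit of size. In whole tissue, fewer cells of a type and less RNA per cell cannot be told apart. *Tug1* lay between 11.2 and 27.7 FPKM in wild-type and between 0.00753 and 0.402 FPKM in knockout tissues, and *LacZ* between 0 and 0.00894 FPKM in wild-type and between 0.355 (liver) and 54.3 FPKM (testes) in knockout, so both follow the labels in every tissue. Of 5 markers of each tissue, all were at 1 FPKM or more in both genotypes of that tissue, except *Sbp*, at 0.831 FPKM in wild-type and 1.15 in knockout prostate, and *Serpina1a*, whose liver entry is 0 for wild-type and knockout alike.

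Of the AP-1 subunits, *Junb* was lower in knockout than in wild-type tissue in 5 of 7 tissues. It was 14.9 FPKM in wild-type and 10.1 FPKM in knockout heart, 29.96 and 19.6 in liver, 28.9 and 21.2 in spleen, 12.8 and 9.003 in the eyes, and, in prostate, 19.8 and 18.3. It was higher in knockout testes, at 2.48 FPKM in wild-type and 3.67 in knockout, and in knockout MEFs, at 36.7 and 49.6. The log2 differences ran from -0.61 in liver to 0.55 in testes, and only the one in liver was past 1.5 times, at 1.53 times lower. The one in heart, 1.47 times lower, lay just under that size. In prostate the difference was -0.12, and 28.7% of the genes counted there had a lower one.

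*Jun*, the partner whose phosphorylation by JNK drives AP-1, had the other sign from *Junb* in liver. *Jun* was 31.9 FPKM in wild-type and 24.2 in knockout heart, 7.29 and 8.75 in liver, 8.52 and 7.16 in spleen, 12.03 and 11.4 in the eyes, 19.5 and 11.4 in prostate, 2.83 and 3.17 in testes and 26.7 and 31.5 in MEFs. It was thus lower in knockout in 4 tissues and higher in 3, and its log2 difference was past the limit in prostate (-0.77) alone. In liver *Junb* was 1.53 times lower and *Jun* 1.197 times higher in knockout, while in prostate *Jun* was 1.70 times lower and *Junb* 1.08 times lower. The ratio of the 2 levels was 4.11 *Junb* per *Jun* in wild-type and 2.24 in knockout liver, and 1.02 and 1.60 in prostate. The table assigns *Jun* to a merged locus that also holds 2 other genes, *4930551L18Rik* and *BC042782*, so its value is less certain than that of the other members.

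*Fos*, which needs a Jun partner to bind DNA, was lower in knockout in all 6 tissues in which it was counted. The level was 10.96 FPKM in wild-type and 4.33 in knockout heart, 1.64 and 1.05 in liver, 3.55 and 1.65 in spleen, 12.1 and 9.69 in the eyes, 2.24 and 1.70 in prostate and 2.97 and 2.65 in MEFs. *Fos* was 2.50 times lower in knockout heart and 2.09 times lower in knockout spleen, where 0.326% and 0.235% of the genes counted had a lower difference. In liver it was 1.52 times lower, close to the limit and at a level near 1 FPKM. In testes it was under the minimum in both genotypes, at 0.33 and 0.476 FPKM.

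*Fosb*, a Fos relative best known from neurons, was counted in testes alone, at 1.18 FPKM in wild-type and 0.932 in knockout. Elsewhere it lay between 0.0834 FPKM in wild-type liver and 0.843 FPKM in knockout MEFs. Its largest log2 difference, -0.74 in heart, came from 0.609 and 0.324 FPKM and was not counted. Testes was also the tissue in which *Fosb* was above *Fos*, with 0.279 *Fos* per *Fosb* in wild-type, against 18.0 in wild-type heart.

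The total of the 7 AP-1 subunits, which also include *Jund*, *Fosl1* and *Fosl2*, was 82.4 FPKM in wild-type and 62.2 in knockout heart, 52.6 and 46.2 in liver, 60.7 and 44.6 in spleen, 55.3 and 45.1 in eyes and 68.6 and 53.8 in prostate. It was higher in knockout testes, at 23.9 and 25.8 FPKM, and in knockout MEFs, at 117 and 148 FPKM. The make-up of the total differed between tissues. *Junb* gave 56.9% of it in wild-type and 42.5% in knockout liver, and *Fos* gave 13.3% in wild-type and 6.96% in knockout heart. In testes *Jund*, the subunit that is made steadily and not induced, gave 59.2% and 56.7%. In MEFs *Fosl1* was 8.41 FPKM in wild-type and 15.0 in knockout, a log2 difference of 0.83, and *Fosl2* was 28.3 and 33.5 FPKM.

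**Figure D2:**
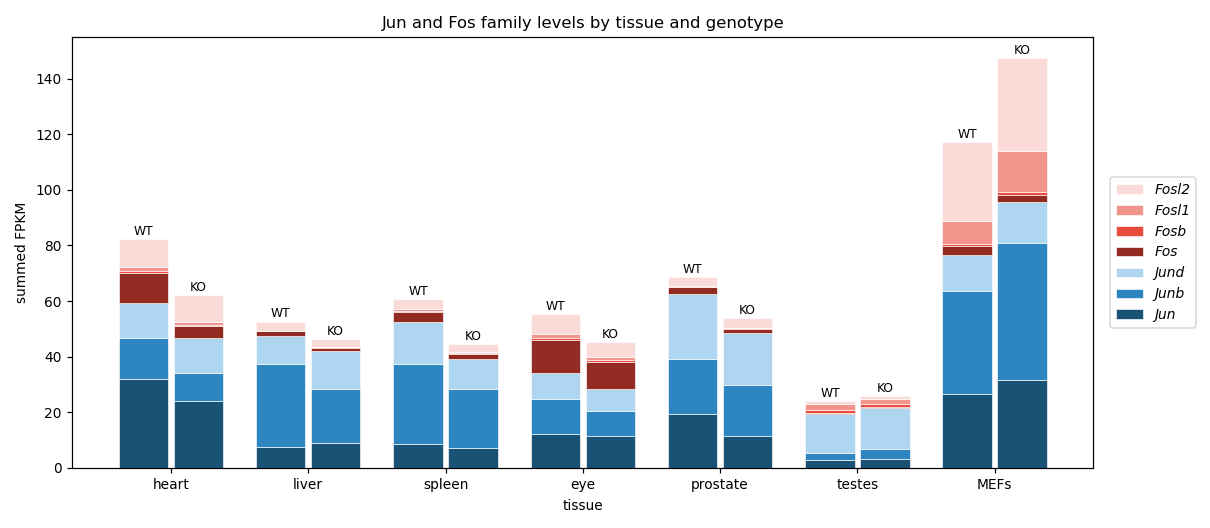
Summed FPKM of the 7 Jun and Fos family genes in each tissue, with a wild-type (WT) and a knockout (KO) bar and a colour for each gene. The KO bar is lower than the WT bar in heart, liver, spleen, eyes and prostate and higher in testes and MEFs, where the totals were 117 and 148 FPKM.

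*Egr1*, a zinc finger factor that acts downstream of the ERK kinases, was lower in knockout in the same 5 organs as *Junb*. It was 16.5 FPKM in wild-type and 6.395 in knockout heart, 7.56 and 4.79 in liver, 7.74 and 6.19 in spleen, 13.0 and 7.56 in eyes and 3.92 and 2.64 in prostate. Testes held 1.70 and 2.13 FPKM and MEFs 24.9 and 25.3. The difference was past the limit in heart (2.56 times lower), eyes (1.71 times) and liver (1.57 times). In MEFs the log2 difference was 0.02, and 55.7% of the genes counted there had a lower one.

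*Nr4a1*, the nuclear receptor also called Nur77, had the largest difference of any of the 10 genes, in liver. It was 13.6 FPKM in wild-type and 2.00 in knockout liver, 6.52 times lower, and 0.0758% of the genes counted in liver had a lower difference. It was 27.2 and 17.4 FPKM in heart, 15.8 and 11.6 in spleen, 16.1 and 11.9 in prostate, 22.6 and 18.5 in testes and 15.6 and 14.6 in MEFs, lower in knockout in each. Eyes were the exception, at 10.9 FPKM in wild-type and 11.4 in knockout. Wild-type levels of *Nr4a1* varied by 2.50 times over tissues, less than those of any other member, and *Nr4a1* gave 52.2% of the summed level of the 10 genes in wild-type testes.

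*Atf3*, a stress-induced factor of the ATF and CREB family, had no difference past 1.5 times. It was 8.35 FPKM in wild-type and 7.56 in knockout heart, 1.41 and 1.501 in liver, 2.05 and 1.88 in spleen, 3.44 and 3.76 in the eyes, 19.1 and 15.4 in prostate and 4.79 and 6.67 in MEFs. In testes both values were under the minimum, at 0.208 and 0.233 FPKM. Of the 6 counted tissues, the knockout level was lower in 3 and higher in 3. Across wild-type tissues its level varied by 91.9 times, the widest range of the 10 genes with values under the minimum included. The lowest of its levels was the 0.208 FPKM of testes, which was not counted, so the size of this range and its rank are uncertain. *Zfp36*, counted in all 7 tissues, varied by 24.1 times.

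*Ier2*, a small nuclear protein of the same early wave, was lower in knockout heart (14.4 FPKM in wild-type and 11.7 in knockout), liver (21.8 and 17.0), spleen (24.6 and 18.0), eyes (9.34 and 7.29) and prostate (13.7 and 11.9). It was higher in knockout testes (2.34 and 3.32) and MEFs (19.7 and 23.2). No difference was past the limit. The signs are those of *Junb* in all 7 tissues, and over the tissues the 2 genes' log2 differences had a Pearson correlation of 0.96 (n = 7, Spearman 0.75), which fell to 0.64 without the 2 tissues farthest from the median of *Junb*. The points share libraries, and tissues are not replicates.

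The feedback genes had opposite signs in heart, liver and testes. *Dusp1* was 61.3 FPKM in wild-type and 50.3 in knockout heart, 42.7 and 28.6 in liver, 18.7 and 14.5 in spleen, 17.3 and 14.4 in the eyes, 5.61 and 4.49 in prostate and 6.93 and 6.00 in testes, lower in knockout in each, and 23.3 and 28.6 in MEFs. The largest difference, in liver, was 1.49 times and just under the limit. *Zfp36* was 21.9 and 25.2 FPKM in heart, 64.5 and 74.5 in liver, 55.2 and 48.8 in spleen, 7.24 and 6.85 in the eyes, 11.9 and 11.6 in prostate, 2.68 and 3.58 in testes and 19.5 and 23.5 in MEFs. It was thus higher in knockout heart and liver, where most other members were lower, and its log2 differences lay between -0.18 and 0.41.

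**Figure D3:**
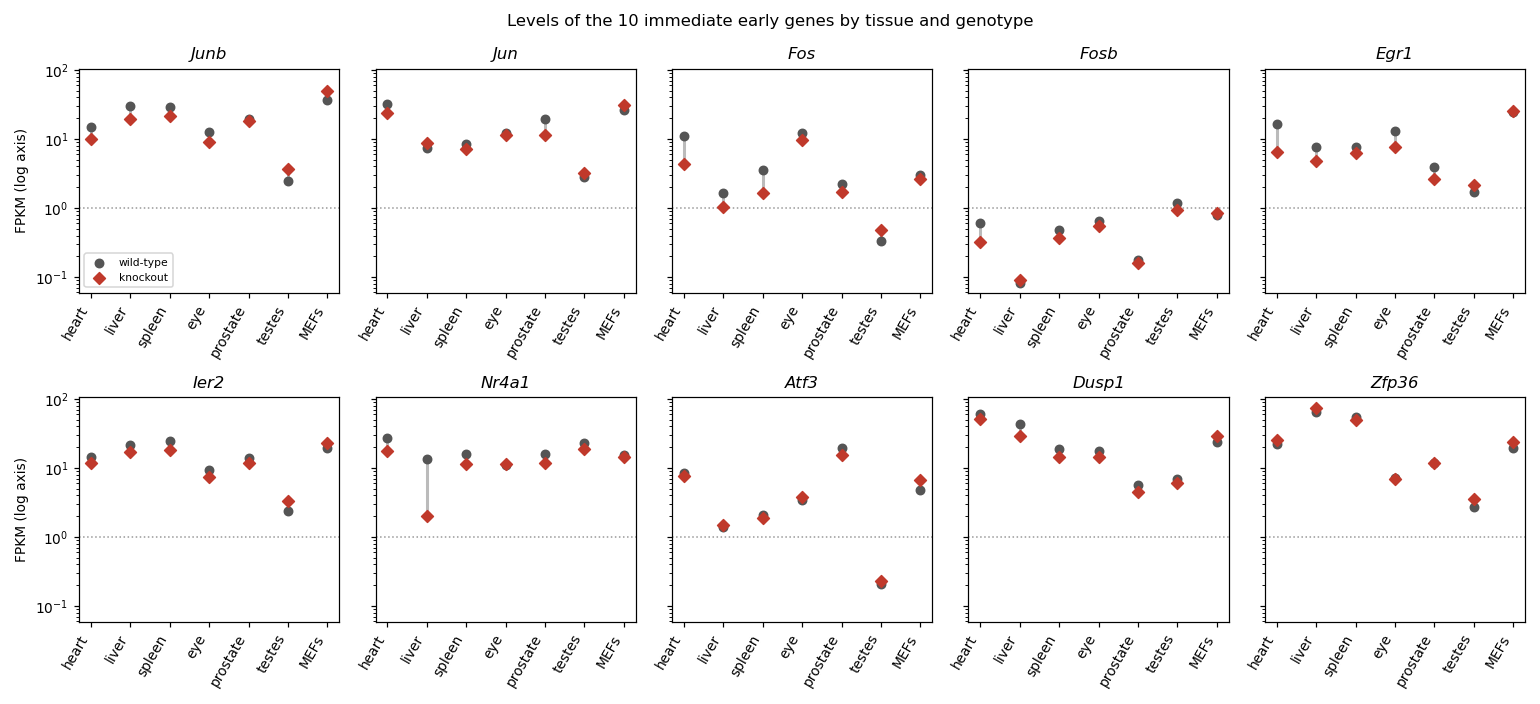
FPKM on a log axis of each of the 10 genes in 7 tissues, with 1 combined wild-type value (grey circle) and 1 combined knockout value (red diamond) per tissue, and the dotted line at the minimum of 1 FPKM. The widest gap is that of *Nr4a1* in liver, at 13.6 and 2.00 FPKM, and *Fosb* lies under the line in all tissues but testes.

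Across tissues, the order of wild-type levels differed between the genes. Testes were lowest for *Junb*, *Jun*, *Fos*, *Egr1*, *Ier2*, *Atf3* and *Zfp36*, but second highest for *Nr4a1* after heart. MEFs were highest for *Junb* and *Egr1*, heart for *Jun*, *Nr4a1* and *Dusp1*, spleen for *Ier2*, eyes for *Fos*, prostate for *Atf3* and liver for *Zfp36*. Without a spread between mice, it cannot be said which neighbours in these orders differ. Summed over all genes, wild-type eyes held 378014 FPKM and wild-type liver 1.1245e+06, so that the scale is not the same in all tissues.

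Counted by tissue, the members were mostly lower in 5 knockout organs and mostly higher in knockout testes and MEFs. In heart 8 of 9 counted members were lower, beside 41.8% of the 12864 genes counted, and 3 (*Fos*, *Egr1* and *Nr4a1*) were lower by more than 1.5 times, beside 1.76%. In liver 6 of 9 were lower, beside 54.3%, and 4 (*Junb*, *Fos*, *Egr1* and *Nr4a1*) were past the limit, beside 2.47%. The count in liver was 2 with 1 FPKM added in place of 0.1, and 1 with a limit of 2 times. In spleen 9 of 9 were lower, beside 54.5%, and 1 (*Fos*) was past the limit, beside 1.27%, a count that was 0 with a minimum of 5 FPKM. In eyes 7 of 9 were lower, beside 56.5%, and 1 (*Egr1*) was past it, beside 0.948%. In prostate 9 of 9 were lower, beside 60.5%, and 1 (*Jun*) was past it, beside 0.793%. With a limit of 2 times the counts in eyes and in prostate were 0.

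In testes 3 of 8 counted members were lower, beside 63.5% of all genes, and 0 were lower by more than 1.5 times, beside 0.961%. In MEFs 2 of 9 (*Fos* and *Nr4a1*) were lower, beside 50.3%, and 0 were past the limit, beside 2.5%. No member was higher by more than 1.5 times in any tissue, where the share of all genes was 0.925% in heart, 2.8% in liver, 5.15% in spleen, 2.79% in eyes, 2.76% in prostate, 1.36% in testes and 1.15% in MEFs. Because the genes were chosen with results of the same contrasts in view, nothing is read from these shares.

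The median log2 difference of the counted members was -0.40 in heart, -0.57 in liver, -0.37 in spleen, -0.26 in eyes, -0.31 in prostate, 0.23 in testes and 0.24 in MEFs. The median in testes was -0.25 with a minimum of 5 FPKM, which leaves *Nr4a1* and *Dusp1*. For all counted genes the medians ran from -0.06 (testes) to 0.03 (heart). The summed level of the 10 genes was 208 FPKM in wild-type and 157 in knockout heart, 190 and 158 in liver, 165 and 131 in spleen, 98.8 and 82.0 in the eyes, 112 and 89.5 in prostate, 43.3 and 42.01 in testes and 175 and 207 in MEFs. Relative to wild-type, the knockout sum differed by -24.28% in heart, -17.1% in liver, -20.7% in spleen, -17.0% in eyes, -20.1% in prostate, -2.91% in testes and 18.0% in MEFs. These percentages were not scaled to the sum over all genes, which also differed between genotypes. That sum was 609121 FPKM in wild-type and 643028 in knockout heart, 1.1245e+06 and 1.00811e+06 in liver and 477671 and 488457 in spleen. It was 378014 and 386436 in eyes, 606953 and 580613 in prostate, 728941 and 680023 in testes and 503820 and 481824 in MEFs. The members' summed difference and their median have opposite signs in testes, where *Nr4a1* gave 52.2% of the members' wild-type sum. Over the 7 tissues, 42 of the 45 pairs of members had a Pearson correlation of their differences above 0, with a median of 0.47, values under 1 FPKM included. The share over all pairs of genes was not computed, and all pairs share the same contrasts, so nothing is read from this count. Without the 2 tissues farthest from the median of the first gene, some pairs changed sign and others did not. *Junb* and *Jun* went from 0.31 to -0.84, and *Fos* and *Ier2* from 0.80 to 0.72.

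**Figure D4:**
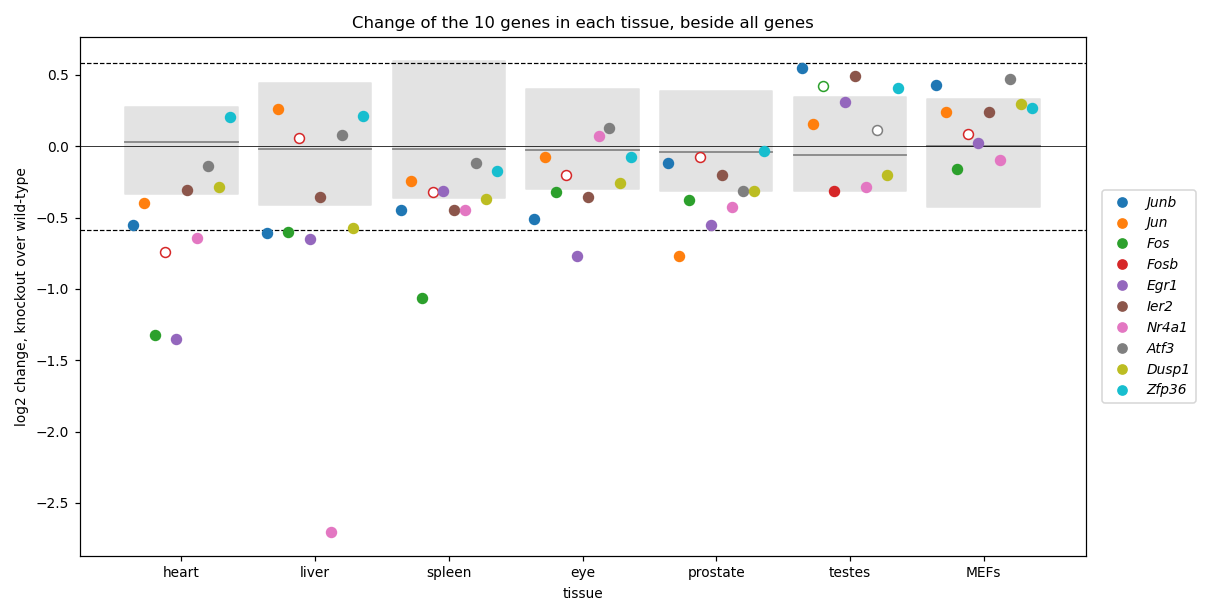
Log2 difference of knockout over wild-type for each of the 10 genes (coloured circles, open where the gene was under 1 FPKM in both genotypes) by tissue, with the range from the 5th to the 95th percentile of all counted genes in grey, their median as a line, and dashed lines at 1.5 times. Points past the lower dashed line are seen in heart, liver, spleen, eyes and prostate and none past the upper one.

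A further list of 45 immediate early genes (44 found) was read in the same way. Of its counted genes, 2 were lower and 3 higher by more than 1.5 times in heart, of 41, and 6 and 6 in liver, of 34. The counts were 2 and 1 of 39 in spleen, 1 and 2 of 38 in eyes, 0 and 3 of 35 in prostate and 0 and 2 of 36 in testes. The medians lay between -0.12 (spleen) and 0.09 (liver) in these 6 tissues. In MEFs 32 of 39 were higher, with a median of 0.17, and 4 were past the limit. Among the 11727 genes counted in MEFs, 5830 were higher, 135 of them (1.15%) by more than 1.5 times. For each tissue, the shares of all genes past the limit stand above with the counts of the members.

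*Cyr61* and *Ctgf*, matricellular proteins that respond to the serum response factor and YAP, were past the limit in opposite directions, although both were higher in knockout prostate, testes and MEFs. *Cyr61* was lower by more than 1.5 times in 3 tissues, at 14.9 FPKM in wild-type and 7.12 in knockout liver, 14.6 and 6.74 in spleen and 14.5 and 9.48 in eyes. *Ctgf* was higher by more than 1.5 times in 3, at 47.9 and 79.6 FPKM in heart, 5.92 and 16.4 in liver, with 7.27 and 15.1 in prostate. The relatives of *Nr4a1* did not all go with it. *Nr4a2* was 1.95 FPKM in wild-type and 0.716 in knockout heart, while *Nr4a3* was 0.9496 and 2.83 FPKM in prostate. In liver *Klf10*, a TGF-beta-induced factor, was 34.5 and 12.8 FPKM, and *Gadd45g*, a stress-induced gene, 10.4 and 33.4 FPKM. In MEFs *Nfkbia*, the inhibitor of NF-kappaB, was 10.9 and 31.5 FPKM.

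The upstream regulators, 19 genes that include *Srf*, the Elk factors, *Creb1* and MAP kinases, had 0 members past 1.5 times in either direction in every tissue. Their median differences lay between -0.09 in testes and 0.09 in liver. These are message levels, and the activity of these proteins is set by phosphorylation, which was not measured.

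Genes that glucocorticoids induce were mostly higher in the knockout organs. Of 12 such genes, 7 were higher by more than 1.5 times in knockout heart, 7 in liver, 7 in spleen, 4 in eyes, 3 in prostate, 1 of 11 counted in testes and 0 of 10 in MEFs, and 0 were lower by that much in any tissue. Their median differences were 0.66, 0.90, 0.73, 0.37, 0.44, 0.08 and 0.01 in that order. Of all genes, 0.925%, 2.8%, 5.15%, 2.79%, 2.76%, 1.36% and 1.15% were higher by that much in the same order. The shares lower by that much ran from 0.793% in prostate to 2.5% in MEFs. This list was chosen with earlier results of these data known, so the counts are no independent evidence. *Fkbp5*, a chaperone partner of the glucocorticoid receptor, was 5.77 FPKM in wild-type and 15.9 in knockout heart, 12.3 and 26.2 in liver, 14.8 and 30.4 in spleen and 12.4 and 22.1 in prostate. *Tsc22d3*, which encodes GILZ, was 78.5 and 130 FPKM in heart, 80.4 and 183 in liver, 25.6 and 44.8 in eyes and 24.0 and 36.8 in prostate. *Zbtb16*, a zinc finger factor, was 5.08 and 14.8 FPKM in heart, 1.61 and 5.71 in liver, 0.586 and 1.06 in spleen and 1.23 and 2.06 in eyes.

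The metallothioneins *Mt1* and *Mt2*, which bind zinc, were higher by more than 1.5 times in heart, liver and spleen. In prostate, where both had their highest levels, they were lower in knockout. There *Mt1* was 5432 FPKM in wild-type and 4788 in knockout, and *Mt2* 4067 and 3699. The sum of the glucocorticoid-induced list in prostate was thus lower in knockout too, at 9790 and 8897 FPKM. *Mt2* was 30.4 and 61.1 FPKM in heart, 13.7 and 38.8 in liver, with 14.2 and 32.3 in spleen, and *Mt1* was 60.8 and 141 in liver. *Lcn2*, an iron-binding acute phase protein that neutrophils also carry, was higher in all 6 tissues in which it was counted and past 1.5 times in 5, with the largest difference in spleen at 14.1 and 37.6 FPKM. *Pdk4*, a kinase that holds back glucose oxidation, was 4.23 and 12.9 FPKM in eyes and 3.58 and 7.66 in spleen.

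Of 10 inducible heat shock genes, 3 were higher by more than 1.5 times in knockout heart, 5 of 9 counted in liver, 6 in spleen, 4 in prostate and 0 in eyes, testes and MEFs, and 0 were lower by that much in any tissue. The shares of all genes past the limit are those given above for the glucocorticoid-induced genes. This list too was chosen with earlier results of these data known. *Hsph1*, an HSP110 chaperone, was 13.9 FPKM in wild-type and 28.8 in knockout heart, 17.0 and 40.0 in liver, 19.1 and 55.4 in spleen and 15.3 and 31.9 in prostate. *Hspa1b*, the inducible HSP70, was 3.73 and 11.04 FPKM in liver and 9.34 and 26.2 in prostate, and its near-identical copy *Hspa1a* 2.36 and 8.02 in prostate, with values that may be shared between the copies. Any part of these genes or of their inducers in the members' differences was not tested.

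**Figure D5:**
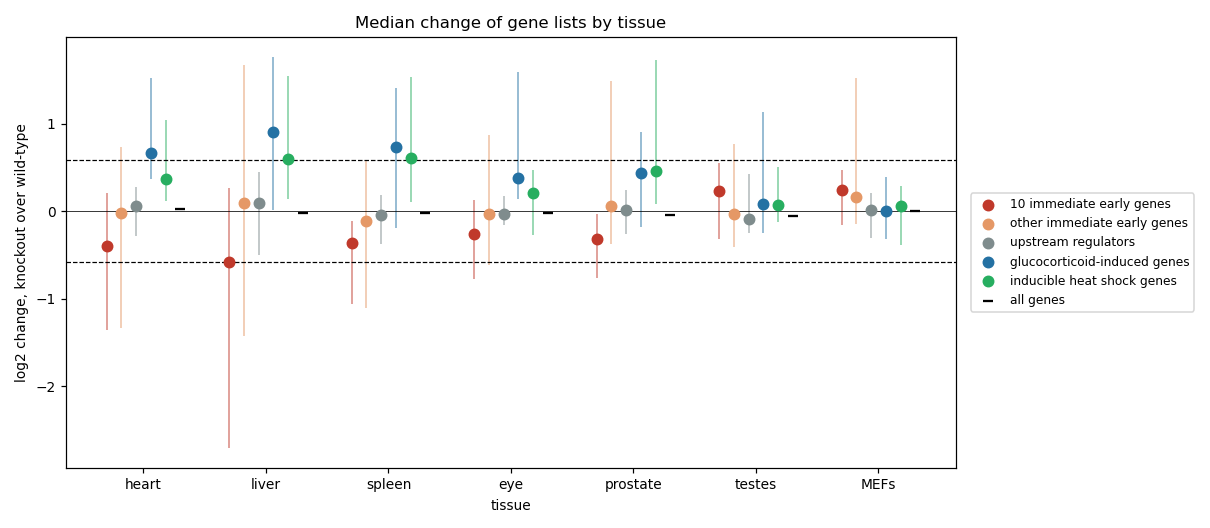
Median log2 difference of knockout over wild-type in each tissue (points) with the lowest and highest gene (thin lines) for the 10 genes, 44 other immediate early genes, 19 upstream regulators, 12 glucocorticoid-induced and 10 heat shock genes, and the median of all genes as a black dash. In heart, liver, spleen, eyes and prostate the median of the 10 genes lies under 0 and those of the glucocorticoid-induced and heat shock genes above it.

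Markers of other cell types also differed between genotypes in the same organs, and in the counts of markers below lower and higher mean by more than 1.5 times. Of all genes, 0.793% (prostate) to 2.5% (MEFs) were lower and 0.925% (heart) to 5.15% (spleen) higher by that much. The marker lists were chosen with earlier results of these data known. In heart 3 of 5 skeletal muscle markers were lower in knockout by that much, *Mylpf* at 18.2 FPKM in wild-type and 1.43 in knockout, *Tnnt3* at 30.3 and 0.786 and *Myh4* at 2.03 and 0.00442. The summed skeletal muscle level in heart was 1336 and 1402 FPKM, carried by *Ckm*, which heart muscle also makes. All 4 adipocyte markers were lower in heart, with sums of 123 and 64.4 FPKM, as were all 3 counted lymphocyte markers, with sums of 27.3 and 13.03, while 2 of 5 erythroid markers were lower and 2 higher by more than 1.5 times, with sums of 7462 and 7911. The lower ones were *Hba-a1* and *Hbb-bs* and the higher ones their close copies *Hba-a2* and *Hbb-bt*, with values that may be shared between copies. In eyes all 5 skeletal muscle markers were higher, with sums of 1666 and 3042 FPKM, all 4 adipocyte markers, with sums of 34.3 and 159, and all 5 erythroid markers, with sums of 184 and 537. Neutrophil markers in eyes summed to 2.40 and 7.06 FPKM, with *Ly6g* listed at 0 in both genotypes.

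In spleen all 5 erythroid markers were higher by more than 1.5 times, with sums of 7738 and 14414 FPKM, and all 7 neutrophil markers, with sums of 720.3 and 1496, and 1 of 2 counted skeletal muscle markers (*Tnnt3*) was lower by that much. *Spink3*, listed here as a prostate marker and also made by pancreatic acinar cells, was higher in knockout spleen by 7.44 on the log2 scale. In prostate 4 of 5 erythroid markers, with sums of 85.4 and 144 FPKM, all 4 adipocyte markers, with sums of 34.97 and 158, and 1 of 5 macrophage markers, with sums of 61.5 and 87.7, were higher by more than 1.5 times, and all 5 markers of each of the erythroid and macrophage lists were higher by some amount. In liver 3 of 5 macrophage markers, with sums of 113 and 185 FPKM, and both counted neutrophil markers, with sums of 3.30 and 5.57, were higher by more than 1.5 times, and all 5 macrophage markers by some amount, *Ly6g* being listed at 0 in both genotypes. In MEFs 2 of 5 macrophage markers (*Cd14* and *Lyz2*) were higher by more than 1.5 times, with sums of 84.8 and 124 FPKM over the list, while *Cd68* and *Csf1r* differed by -0.53 and -0.35. Endothelial markers passed the limit in 0 tissues, and in testes 0 markers of these erythroid, neutrophil, macrophage, lymphocyte, endothelial, muscle and adipocyte lists did. The part of cell make-up in the members' values was not tested. The markers of the tissues themselves were within 1.5 times in each tissue, except 1 of 5 in prostate, *Msmb*, with a log2 difference of 0.77.

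In the genome build of the table, mm10, the genes lie on 8 chromosomes. *Junb* (ENSMUSG00000052837.5) is at chromosome 8, 84976909 to 84978748, minus strand, and *Ier2* (ENSMUSG00000053560.4) at chromosome 8, 84661331 to 84662852, also minus, 314056 bases away. *Fosb* (ENSMUSG00000003545.2) is at chromosome 7, 19302721 to 19310045, and *Zfp36* (ENSMUSG00000044786.5) at chromosome 7, 28376784 to 28379255, both minus. *Fos* (ENSMUSG00000021250.7) is at chromosome 12, 85473890 to 85477273, plus, *Nr4a1* (ENSMUSG00000023034.6) at chromosome 15, 101266846 to 101274792, plus, *Atf3* (ENSMUSG00000026628.8) at chromosome 1, 191170296 to 191183340, minus, and *Dusp1* (ENSMUSG00000024190.6) at chromosome 17, 26505590 to 26508519, minus. *Jun* (ENSMUSG00000052684.3) is on the minus strand of chromosome 4, where its own gene runs from 95049034 to 95052222 in GENCODE vM21. *Egr1* (ENSMUSG00000038418.7) runs from 34859823 to 34864984 on the plus strand of its chromosome. *Zfp36* is overlapped by the antisense gene *Gm44710* and *Jun* by *Junos*, and since the library kit, TruSeq RNA v2, does not keep the strand, reads of a gene and its antisense partner cannot be told apart.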

How the data were processed

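Polyadenylated RNA of 7 tissues was sequenced in 42 samples (TruSeq RNA v2 kit). The submitters' processing notes name CASAVA 1.8.2, TopHat2, Cuffdiff and the build mm10. The deposited table gives FPKM per genotype and tissue, in which the authors had combined the replicates. The header states no unit, and FPKM is that of the Cuffdiff layout. The authors' fold changes, test statistics, p-values and q-values in the same table were not used. The rows of 1 tissue with no matching sample were not analysed here. The paper's methods describe another route, through STAR, featureCounts and DESeq2, for the calls of the study.

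The members and gene lists were chosen with earlier results of these data known. All 10 members are named. Of each other list but those of markers, the text names genes past 1.5 times in the same direction in at least 3 tissues. Up to 4 further genes with the largest change are named as well. Marker genes, *Spink3*, *Nr4a2*, *Fosl1*, *Fosl2*, *Jund* and *Msmb* were named after their values were seen. Not every marker past 1.5 times in at least 3 tissues is named. Each change is log2((KO + 0.1)/(WT + 0.1)). Counts and medians were taken over genes with at least 1 FPKM in either genotype. The mean of the members and the correlations between members used all 10 genes without this minimum. A listed 0 may be a failed estimate rather than an absent message. Alternatives were pseudocounts of 0.01 and 1, no minimum or a minimum of 5 FPKM, a limit of 2 times, centring on the median of all genes, and leaving out *Junb*. Counting was run on simulated tables without noise, with 200 genes per tissue planted past the limit, in Python 3.11.15 (numpy 2.4.6, pandas 2.3.3, matplotlib 3.10.9). That run checks the code alone and says nothing of noisy or low values.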

Additional observations from a re-analysis of the deposited data

How the results depend on the processing

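The table has 1 value per genotype and tissue, so no replicate could be left out and the replicate error is unknown. No paired analysis was possible because replicates had been combined before deposit. The number of members lower by more than 1.5 times in liver, 4, was 2 with a pseudocount of 1 and 1 with a limit of 2 times. The median of the members in liver, -0.57, was -0.37 with a pseudocount of 1, -0.47 without a minimum level and -0.47 without *Junb*. The count in spleen was 0 with at least 5 FPKM, and the counts in eyes and in prostate were 0 with a limit of 2 times. In testes 1 member (*Junb*) was higher by more than 1.5 times after centring on the median of all genes, and the median was -0.25 with at least 5 FPKM, which leaves *Nr4a1* and *Dusp1*. Of the 70 differences, 1 changed sign after centring, with a largest shift of 0.060, and 0 did with pseudocounts of 0.01 and 1, whose largest shifts were 0.148 and 0.460. Values near 1 FPKM, such as those of *Fos* in liver, are the least certain, and depth is unknown.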

Other observations

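Of 95 other genes with at least 1 FPKM in every tissue and a standard deviation of their differences over tissues of at least 0.5, those whose 7 differences were most like the mean of the 10 members were *Bcl3* (Pearson 0.86), *Gm5506* (0.78), *P2ry2* (0.72), *Gm11973* (0.64), *Alox5ap* (0.59), *Cyr61* (0.59), *F3* (0.59), *Nfkbia* (0.55), *Klf10* (0.54) and *Tnfrsf12a* (0.52). The mean difference of the members was -0.55 in heart, -0.49 in liver, -0.39 in spleen, -0.24 in eyes, -0.32 in prostate, 0.16 in testes and 0.18 in MEFs. It was taken over all 10 members, values under 1 FPKM included. *Bcl3*, a nuclear IkappaB protein, differed by -0.54 in heart, 0.16 in liver, -0.27 in spleen, 0.43 in eyes, -0.21 in prostate, 0.61 in testes and 0.81 in MEFs, so that it had the other sign in liver and eyes. *Cyr61* had the same sign as the members' mean in 6 of the 7 tissues, prostate being the exception. These correlations are over tissues that share libraries with the members and are given as a description.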
